A study of Mus musculus with 2 samples.

Results

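The genes described here are the cytosolic aminoacyl-tRNA synthetases and the genes of the amino acid stress response driven by the transcription factor ATF4 (the ATF4 response). The members were taken by symbol from a written list of 37 genes, 20 synthetases and 17 genes of the ATF4 response, and all 37 were among the 23282 gene rows of the count tables. RNA was measured in 2 libraries, 1 control and 1 RV-Cre, made by 3′ end sequencing (QuantSeq), in which the reads of a gene come from the end of its transcript. Both were naïve CD4 T cells from the spleens of *Fak* fl/fl mice, female and 6 to 8 weeks old, in which *Fak* (*Ptk2*, focal adhesion kinase) can be removed by Cre recombinase. Control cells were transduced with the empty retroviral vector, and RV-Cre cells with a vector that expresses Cre together with GFP. Both cultures were then polarized toward Th17 cells for 3 days before GFP+ cells were sorted. The culture held 10 μg/ml plate-bound anti-CD3, 5 μg/ml anti-CD28, 50 ng/ml IL-6, 1 ng/ml TGF-β1, 1 ng/ml TNF, 2 ng/ml IL-1β, and 5 μg/ml each of anti-IFN-γ and anti-IL-4. One label of the control calls its genotype WT, but the title gives *Fak* fl/fl as the source of the cells and was used here. Cells with Cre and an intact *Fak* gene were not analysed here, so the effect of Cre itself and that of *Fak* loss cannot be told apart.

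An aminoacyl-tRNA synthetase joins 1 amino acid to its tRNAs and so supplies the ribosome with charged tRNA. When uncharged tRNA builds up, the kinase GCN2 (*Eif2ak4*) phosphorylates the initiation factor eIF2, most translation slows, and the mRNA of *Atf4* is translated more. ATF4, as a dimer with C/EBP proteins, then switches on genes for amino acid synthesis, amino acid import and tRNA charging, as well as its own brakes. Activated T cells enlarge and divide quickly, and they need both tRNA charging and amino acid supply for it. Because *Atf4* is controlled largely at translation, its mRNA level is not a measure of ATF4 activity.

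The control library held 13799264 reads and the RV-Cre library 12305010. Reads on the ribosomal RNA gene *Rn45s* made up 8.50% and 14.6% of them. *Ptk2* had 110 reads in control and 31 in RV-Cre cells, a ratio of 0.318 (95% interval 0.206 to 0.477). The part of *Ptk2* that Cre removes is not given in the sources used here, so these 3′ reads may lie outside it. All 8 CD4 T cell markers passed the expression minimum, with 20664 summed reads in control and 25406 in RV-Cre cells. Markers of other cells had fewer reads, with higher sums in RV-Cre cells, 42 and 108 for 5 B cell genes, 318 and 453 for 7 myeloid genes, 517 and 908 for 7 CD8 and NK cell genes, and 40 and 232 for 4 erythroid genes. *Pax5*, a defining gene of B cells, was at 0 in both libraries, and *Adgre1*, a macrophage gene, had 0 and 8 reads. Single myeloid markers went both ways, with 16 and 110 reads for *Csf1r* but 22 and 7 for *Lyz2*. Of the CD8 and NK cell markers, both CD8 genes were higher in RV-Cre cells, with 322 and 580 reads for *Cd8a* and 122 and 274 for *Cd8b1*. *Klrk1* was lower, with 41 and 9. The 3 erythroid genes past the minimum were all higher in RV-Cre cells. They had 30 and 165 reads (*Hba-a1*), 3 and 16 (*Hbb-bs*) and 7 and 51 (*Alas2*), and *Hbb-bs* and *Alas2* passed the minimum through RV-Cre alone. The part of these cells in the results was not tested, and in bulk RNA fewer cells of a type and less RNA per cell cannot be told apart.

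With 1 library per group there is no replicate check, and no difference below was tested. Ratios are RV-Cre over control after scaling the libraries by the trimmed mean of M-values (TMM), and the 95% interval beside a ratio is exact (Clopper-Pearson) and covers counting error only. A log2 ratio was taken after adding 1 to the normalized reads. A gene was called 2-fold higher or lower when the size of its log2 ratio was at least 1 and its log2 value was at least 4 (15 normalized reads) in at least 1 library. All 20 synthetases and 15 of the 17 ATF4 response genes passed that minimum.

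ATF4 acts at a DNA element in which its half-site is joined to one for a C/EBP protein, and the sequences of that element are shown here because they mark which members carry it near their start. The letters TGATGNAA were searched on both strands in the RefSeq promoters of assembly GRCm38.p6, from 250 bases before to 50 bases after the start of a gene. An entry was matched for 29 of the 37 members. *Vars*, *Hars*, *Rars*, *Lars*, *Cars*, *Nars*, *Wars* and *Eif4ebp1* had none. The element was found in 10 of the 29 member promoters (34.5%), compared with 1219 of all 27025 promoters (4.51%) and 275 of the 9644 promoters of genes past the minimum (2.85%). The ATF4 response genes were listed as genes driven by ATF4, so a higher share among members is no test of the list. Of the 11 matches, 10 follow with 30 bases each, read along the strand of the gene, with the element or its reverse complement in capitals. The first 5 belong to synthetases and the last 5 to the ATF4 response.
Aars (chr8:111033840-111033869, plus strand): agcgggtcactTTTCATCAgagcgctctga
Gars (chr6:55037960-55037989, plus strand): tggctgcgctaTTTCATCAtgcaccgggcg
Iars (chr13:49682126-49682155, plus strand): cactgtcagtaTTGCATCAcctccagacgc
Tars (chr15:11399655-11399684, minus strand): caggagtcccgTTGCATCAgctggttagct
Yars (chr4:129189895-129189924, plus strand): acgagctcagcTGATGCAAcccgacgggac
Asns (chr6:7693214-7693243, minus strand): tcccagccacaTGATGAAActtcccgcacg
Chac1 (chr2:119351038-119351067, plus strand): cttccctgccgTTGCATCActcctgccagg
Trib3 (chr2:152344028-152344057, minus strand): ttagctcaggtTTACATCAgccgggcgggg
Pycr1 (chr11:120643833-120643862, minus strand): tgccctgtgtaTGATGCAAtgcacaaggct
Nupr1 (chr7:126625562-126625591, minus strand): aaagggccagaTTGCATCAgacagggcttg

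In 7 of the 11 matches the free base N was C when read as TGATGCAA, and this stricter form was in 24.1% of the member promoters with an entry, 1.03% of all promoters and 0.798% of promoters of genes past the minimum. The matches lay on both sides of the start, from -193 in *Chac1* to 22 in *Trib3*. The 250 bases before the start are given for *Asns*, whose reads fell and whose match lies in that stretch.
Asns (chr6:7693210-7693459, minus strand): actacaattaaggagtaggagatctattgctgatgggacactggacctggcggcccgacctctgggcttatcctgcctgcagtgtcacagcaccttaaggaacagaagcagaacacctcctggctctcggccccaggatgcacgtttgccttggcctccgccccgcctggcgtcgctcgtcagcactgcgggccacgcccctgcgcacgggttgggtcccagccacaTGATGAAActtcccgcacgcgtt
A match to these letters describes the sequence and does not show that ATF4 binds there in these cells.

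The first comparison asked how the synthetases differed between RV-Cre-transduced and control Th17 cells. *Iars*, the isoleucine enzyme, was the synthetase that fell by 2-fold or more, and none rose that far. Summed over the 20 genes, the reads were 49067 in control and 37071 in RV-Cre cells, 0.356% and 0.301% of each library, and the ratio of the sums was 0.853 (95% interval 0.841 to 0.864). Leaving *Rn45s* out of the totals, the shares were 0.389% and 0.353%. The median log2 ratio of the 20 genes was -0.23, and that of all 12112 genes past the minimum was -0.01.

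Fewer genes pass 2-fold at high read numbers, so the synthetases were also set beside the 4232 genes in their own range of mean level. The single gene past 2-fold among 20 compares with 7.16% of those genes called lower (12.3% of all 12112), and the absence of genes called higher with 3.10% (14.2% of all). The 95% counting interval lay below 1 for 12 synthetases, above 1 for 4 and held 1 for the other 4. For genes of the same range these shares were 47.4% below and 35.6% above, and their median log2 ratio was -0.08 (38.1% below and 36.7% above among all genes). The 12 of 20 below 1 are therefore near the background in number, and the list ran from -1.05 to 0.49.

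**Figure D1:**
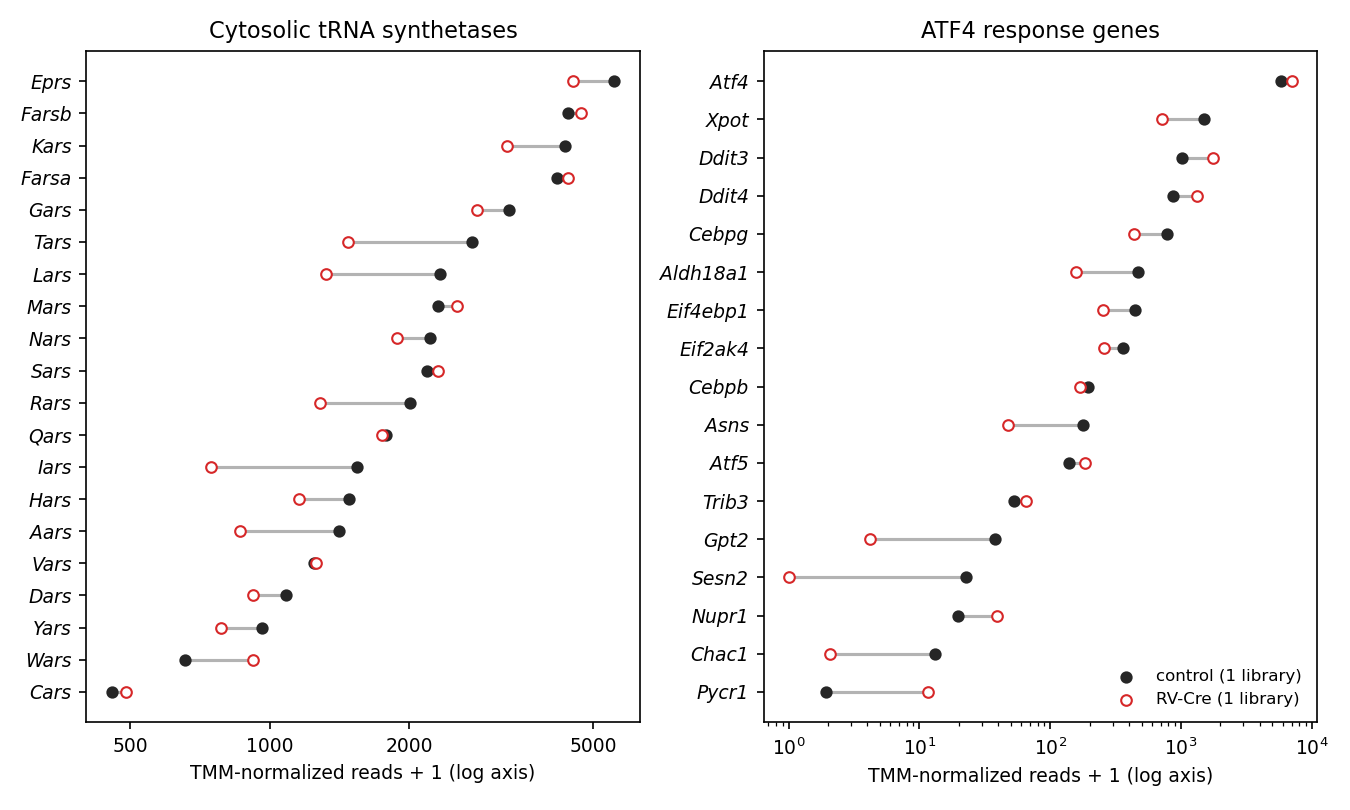
TMM-normalized reads plus 1 (log axis) of the 20 synthetases (left) and the 17 ATF4 response genes (right) in the control library (filled circles) and the RV-Cre library (open circles), 1 library each, joined by a line per gene. *Iars*, *Tars* and *Lars* have the longest lines toward lower values among the synthetases, and *Sesn2*, at 0 reads in RV-Cre cells, the longest of the ATF4 response.

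*Iars* (chr13:49682100-49734267, GENCODE M21 on GRCm38) had 1637 reads in control and 702 in RV-Cre cells, a ratio of 0.484 (0.442 to 0.529) and a log2 ratio of -1.05. Its interval holds a 2-fold fall, and the call ended with library totals that leave out *Rn45s* (-0.96), with quantile normalization (-0.94) and with scaling to *Gapdh* (-0.63). *Tars*, the threonine enzyme, had 2904 and 1389 reads, a ratio of 0.540 (0.506 to 0.576). *Lars*, the leucine enzyme, had 2476 and 1243 reads, a ratio of 0.567 (0.529 to 0.607). These genes, with *Aars* for alanine (1502 and 811 reads, log2 ratio -0.71) and *Rars* for arginine (2135 and 1206 reads, -0.65), formed the low end of the list.

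A middle group had ratios closer to 1 with intervals still below it. *Kars*, for lysine, had 4625 and 3064 reads (log2 ratio -0.42), and *Hars*, for histidine, had 1576 and 1088 (-0.36). *Eprs*, the bifunctional enzyme for glutamate and proline and the synthetase with most reads, had 5901 and 4250 reads, a ratio of 0.813 (0.781 to 0.846). *Yars* for tyrosine (1021 and 739 reads), *Dars* for aspartate (1151 and 866), *Gars* for glycine (3484 and 2637) and *Nars* for asparagine (2357 and 1776) had log2 ratios from -0.29 to -0.23. Within this group, all but *Kars* changed sign when the libraries were scaled to *Gapdh* (956 and 634 reads), a scaling that moved the median of all genes to 0.43.

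At the other end, *Wars*, the tryptophan enzyme, had 698 reads in control and 867 in RV-Cre cells, a ratio of 1.40 (1.27 to 1.55). The subunits of the phenylalanine enzyme stayed together, with 4438 and 4146 reads for *Farsa* (ratio 1.05, 1.01 to 1.10) and 4680 and 4434 for *Farsb* (1.07, 1.03 to 1.11). *Farsa* had 94.8 reads per 100 of *Farsb* in control and 93.5 in RV-Cre cells, a ratio within each library that no scaling can move. *Mars*, for methionine, had 2451 and 2395 reads (ratio 1.10, 1.04 to 1.17). The intervals of *Cars* (cysteine, 483 and 459 reads), *Sars* (serine, 2324 and 2173), *Vars* (valine, 1326 and 1184) and *Qars* (glutamine, 1898 and 1642) held 1.

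Reads per 100 of another synthetase restate the spread among the synthetases inside each library, in single pairs that no scaling can move. *Iars* had 123 reads per 100 reads of *Vars* in control and 59.3 in RV-Cre cells, and *Lars* had 187 and 105, although the 3 enzymes charge the branched-chain amino acids. *Tars* had 125 and 63.9 reads per 100 reads of *Sars*.

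**Figure D2:**
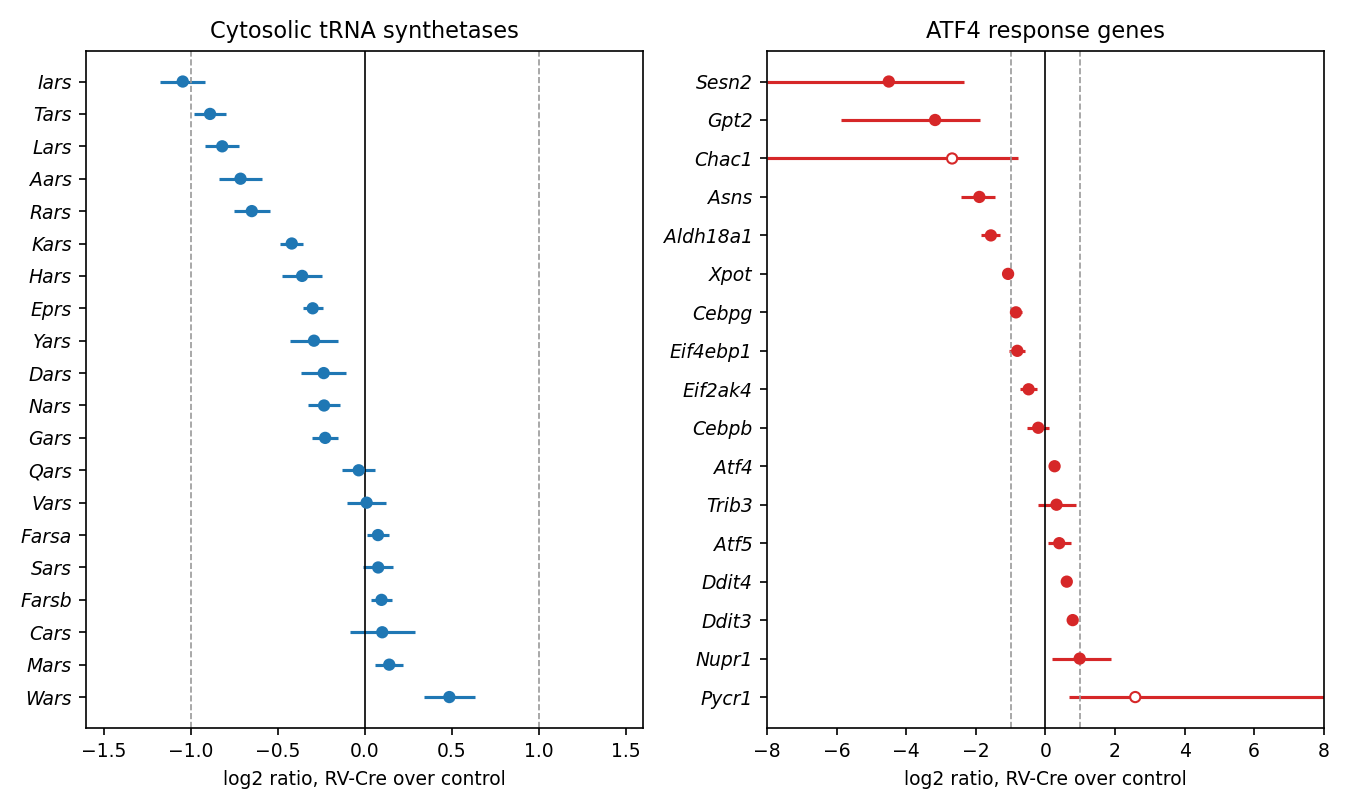
Log2 ratio (RV-Cre over control) of each member with its exact 95% counting interval, synthetases on the left and ATF4 response genes on the right, in order of the ratio. Dashed lines mark 2-fold, open symbols are members below the expression minimum (*Chac1*, *Pycr1*), and intervals past the axis are clipped. All synthetases except *Iars* (-1.05) lie inside the 2-fold lines, while 5 ATF4 response genes past the minimum lie below them.

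Several synthetases are held in the multisynthetase complex, a particle that also holds 3 scaffold proteins. The 8 synthetases of the complex (*Eprs*, *Iars*, *Lars*, *Mars*, *Qars*, *Rars*, *Kars* and *Dars*) had a median log2 ratio of -0.36 and a ratio of summed reads of 0.779. The 12 outside it had -0.11 and 0.914. Among the scaffolds, *Eef1e1* (AIMP3) fell from 1205 to 431 reads, a ratio of 0.404 (0.361 to 0.451), while *Aimp1* had 2555 and 2131 reads (log2 ratio -0.09) and *Aimp2* had 1987 and 1832 (0.06). *Eef1e1* had 49.2 reads per 100 reads of *Mars*, the enzyme its protein binds, in control and 18.0 in RV-Cre cells. By fold of the catalytic domain, the 9 class I synthetases had a median of -0.03 and the 10 class II synthetases -0.23. Their ratios of summed reads had the other order, 0.834 for class I and 0.870 for class II. *Eprs*, which has a domain of each class, was left out.

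Of the 17 mitochondrial synthetases, which charge tRNA inside that organelle, none was past 2-fold in either direction, beside 14.2% of all genes called higher and 12.3% called lower. Their median log2 ratio was -0.04, with 3 intervals above 1 and 6 below, beside 36.7% and 38.1% of all genes. The lowest were *Aars2* (205 and 110 reads, -0.72) and *Nars2* (112 and 61 reads, -0.69), and the highest were *Hars2* (289 and 434 reads, 0.76) and *Tars2* (405 and 561 reads, 0.64). The enzymes for threonine and histidine thus lay on opposite sides of 0 in the cytosol and in the mitochondrion, while those for alanine lay below 0 in both. With scaling to *Gapdh*, *Hars* also lay above 0.

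The ATF4 response genes were compared next. Of the 15 past the minimum, 5 fell by 2-fold or more (*Sesn2*, *Gpt2*, *Asns*, *Aldh18a1* and *Xpot*) and none rose that far, beside 12.3% of all genes called lower and 14.2% called higher. *Sesn2* and *Gpt2* passed the minimum through the control library alone. *Nupr1* missed the call by the 1 added to its reads, with a ratio of 2.03 (1.14 to 3.70), and was called higher with a pseudocount of 0.1 and with library totals that leave out *Rn45s*. The intervals lay below 1 for 8 genes, above 1 for 5 and held 1 for 2, beside 38.1% below and 36.7% above among all genes, so the number above 1 is near the background. The median log2 ratio was -0.48, also with *Sesn2* set at its bound, but -0.21 when a log2 value of 4 was required in both libraries, which leaves out *Sesn2* and *Gpt2*. Summed reads of the list, in which *Atf4* has the most, were 12672 in control and 11698 in RV-Cre cells, a ratio of 1.04 (1.02 to 1.07) on the other side of 1.

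*Atf4* (chr15:80255184-80257541) had 6203 reads in control and 6597 in RV-Cre cells, a ratio of 1.20 (1.16 to 1.24). *Ddit3*, which encodes the factor CHOP, had 1085 and 1656 reads, a ratio of 1.72 (1.59 to 1.86). *Trib3*, a pseudokinase that restrains ATF4, had 55 and 61 reads, a ratio of 1.25 (0.855 to 1.84). The transcription factors and cofactors of the list were thus mostly at or above their control level.

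Among the others of this role, *Atf5* had 148 and 173 reads (log2 ratio 0.40), and *Nupr1*, a stress-induced chromatin protein, had 20 and 36 (0.98). *Cebpb*, a C/EBP partner of ATF4, had 206 and 158 reads (-0.21), with an interval that held 1. *Cebpg*, another such partner, had 835 and 411 reads (-0.85). The 7 genes had a median of 0.32, with 4 intervals above 1 and 1, that of *Cebpg*, below, beside 36.7% and 38.1% of all genes.

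Apart from *Sesn2*, the lowest ratios past the minimum were those of enzymes that make amino acids. *Asns* (chr6:7675169-7693254), which makes asparagine, fell from 188 to 44 reads, a ratio of 0.264 (0.186 to 0.368) and a log2 ratio of -1.90. *Aldh18a1* (chr19:40550257-40588463), which starts proline synthesis from glutamate, fell from 497 to 148 reads, a ratio of 0.336 (0.278 to 0.405). *Gpt2* (chr8:85492576-85527560), a mitochondrial alanine transaminase, fell from 39 to 3 reads, a ratio of 0.0868 (0.0172 to 0.273).

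*Pycr1*, which ends proline synthesis, had 1 read in control and 10 in RV-Cre cells, under the minimum, a ratio of 11.3 (1.61 to 490). The 4 enzymes together had 725 reads in control and 205 in RV-Cre cells, a ratio of 0.319 (0.272 to 0.373). Relative to *Atf4* in the same library, *Asns* went from 3.03 to 0.667 reads per 100 and *Aldh18a1* from 8.01 to 2.24, while *Ddit3* went from 17.5 to 25.1.

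Of the genes that hold back growth and translation, *Sesn2* (chr4:132492032-132510501), a leucine sensor that restrains mTORC1, had 23 reads in control and 0 in RV-Cre cells, at least 6.79-fold lower against a floor of 3 reads. That bound leaves out the counting error of the control reads, and the 95% interval of the ratio ends at 0.196. *Eif4ebp1*, which blocks the cap-binding factor eIF4E, had 469 and 237 reads (log2 ratio -0.81). *Ddit4* (REDD1), which also restrains mTORC1, had 926 and 1256 reads (0.61). The 3 genes did not share a direction.

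*Xpot* (chr10:121587380-121626332), which exports tRNA from the nucleus, fell from 1585 to 667 reads, a ratio of 0.475 (0.433 to 0.520). As with *Iars*, its interval holds a 2-fold fall, and the call ended with library totals that leave out *Rn45s* (-0.98), with quantile normalization (-0.96) and with scaling to *Gapdh* (-0.66). *Eif2ak4*, the GCN2 kinase, had 379 and 240 reads, a ratio of 0.715 (0.605 to 0.842). *Chac1*, which degrades glutathione, had 13 reads in control and 1 in RV-Cre cells, under the minimum, a ratio of 0.0868 (0.0020 to 0.578).

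**Figure D3:**
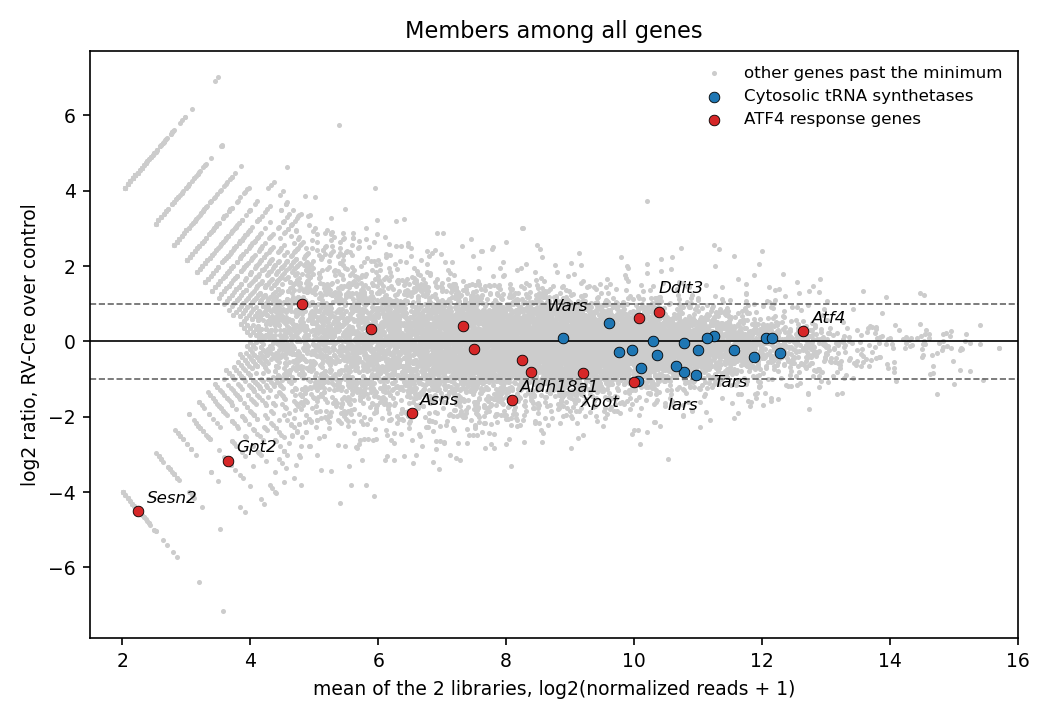
Log2 ratio (RV-Cre over control) against the mean log2 level of both libraries for genes past the minimum (grey), with synthetases in blue and ATF4 response genes in red, and dashed lines at 2-fold. The synthetases sit at mean levels where few genes pass 2-fold, and *Gpt2* and *Sesn2* sit at low levels where many do.

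The response was then read against the promoter elements shown above. The 5 synthetases with the element had log2 ratios from -1.05 (*Iars*) to -0.23 (*Gars*) with a median of -0.71, and the 8 with an entry but no match had ratios from -0.42 (*Kars*) to 0.14 (*Mars*) with a median of 0.02. This split leaves out the 7 synthetases with no entry, among them *Lars* (-0.82), *Rars* (-0.65) and *Hars* (-0.36). The ranges with and without a match overlap, since *Kars*, *Eprs* and *Dars* lie below *Gars*. In the ATF4 response the order was the other way, with a median of 0.32 over 3 genes with the element (*Asns*, *Trib3* and *Nupr1*) and -0.48 over 11 without. Over all genes past the minimum the medians were 0.04 with the element and -0.01 without, and 14.5% and 12.0% were called lower.

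**Figure D4:**
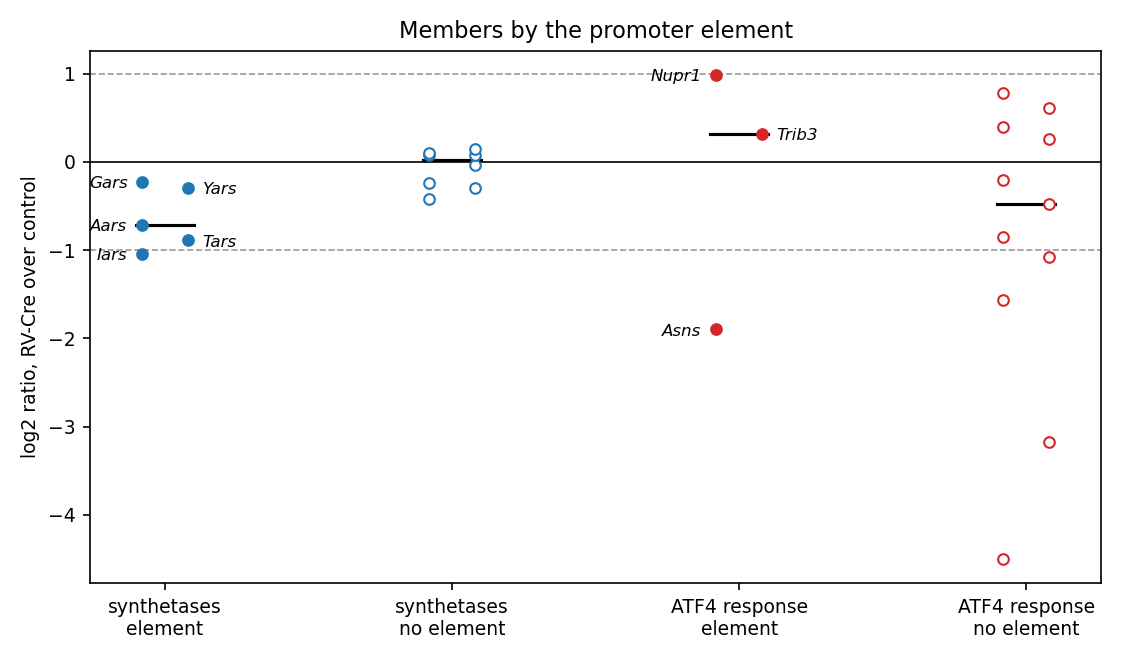
Log2 ratio (RV-Cre over control) of the members past the minimum that have a RefSeq promoter entry, split by whether TGATGNAA or its reverse complement lies in the 300 bases around the start (filled, named symbols) or not (open symbols). Short bars are medians, -0.71 and 0.02 for the synthetases and 0.32 and -0.48 for the ATF4 response genes.

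Other genes of the pathway were read from lists chosen by function. All 8 enzymes of serine synthesis and the folate cycle, which include ATF4 targets, had intervals below 1, beside 38.1% of all genes and 47.4% of those in the range of the synthetases, with a median log2 ratio of -0.77. *Shmt1*, a serine hydroxymethyltransferase, fell from 2062 to 776 reads (-1.23), and *Psat1*, of serine synthesis, fell from 2684 to 1031 (-1.21). The mitochondrial folate enzymes *Mthfd2* (3650 and 2697 reads, -0.26) and *Mthfd1l* (4708 and 3131 reads, -0.41) were the nearest to 0, and both turned above it with scaling to *Gapdh*.

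Of 12 amino acid transporters, 3 fell by 2-fold or more and none rose that far, beside 12.3% of all genes called lower and 14.2% called higher. Their median was -0.34, with 8 intervals below 1 and 2 above (38.1% and 36.7% of all genes). Those called were *Slc6a9*, a glycine carrier (79 and 16 reads, -2.07), *Slc7a3*, for cationic amino acids (31 and 8 reads, -1.67), which passed the minimum through control alone, and *Slc38a1*, for glutamine and other neutral amino acids (4834 and 2075 reads, -1.05). The interval of *Slc38a1*, 0.460 to 0.510, holds a 2-fold fall, and its call also ends with library totals that leave out *Rn45s*. The highest were *Slc7a11*, the cystine carrier (49 and 68 reads, 0.64), and *Slc43a1* (14 and 16 reads, 0.34). *Slc43a1* passed the minimum through RV-Cre alone, and its interval held 1.

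The genes upstream of *Atf4*, for eIF2, its exchange factor eIF2B, and the kinases and phosphatases of eIF2, had a median of -0.30. Of these 15 genes, 3 fell by 2-fold or more, beside 12.3% of all genes, and 10 intervals lay below 1, beside 38.1%. *Eif2s3x* fell from 5457 to 1832 reads (-1.40) and *Eif2s1* from 2792 to 1144 (-1.11), which encode the γ and α subunits of eIF2. *Eif2s2*, for the β subunit and with the most reads of the list, had 17106 and 14383 (-0.08). *Eif2b1*, for a subunit of eIF2B, fell from 1090 to 424 (-1.19). The kinase gene *Eif2ak2* (127 and 56 reads) missed the call by the 1 added to its reads, with a ratio of 0.498 (0.357 to 0.687). The highest of this list were *Gcn1l1*, a partner of GCN2 (527 and 636 reads, 0.44), and *Eif2b2* (1189 and 1329 reads, 0.33).

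Of 15 further targets of ATF4 or CHOP, 12 passed the minimum, with a median of -0.40, and 2 genes were called lower and 2 higher, beside 12.3% and 14.2% of all genes. *Gdf15* and *Vldlr* passed through RV-Cre alone and *Cbs* through control alone. *Vegfa*, an angiogenic factor, fell from 146 to 34 reads (-1.90) and *Cbs*, of cysteine synthesis, from 51 to 14 (-1.63). *Gdf15*, a stress-induced cytokine, had 0 reads in control and 35 in RV-Cre cells, at least 13.2-fold higher against the floor of 3 reads, and the 95% interval of its ratio starts at 10.2. *Vldlr*, a lipoprotein receptor, had 2 and 20 reads, a ratio of 11.3 (2.74 to 99.6).

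**Figure D5:**
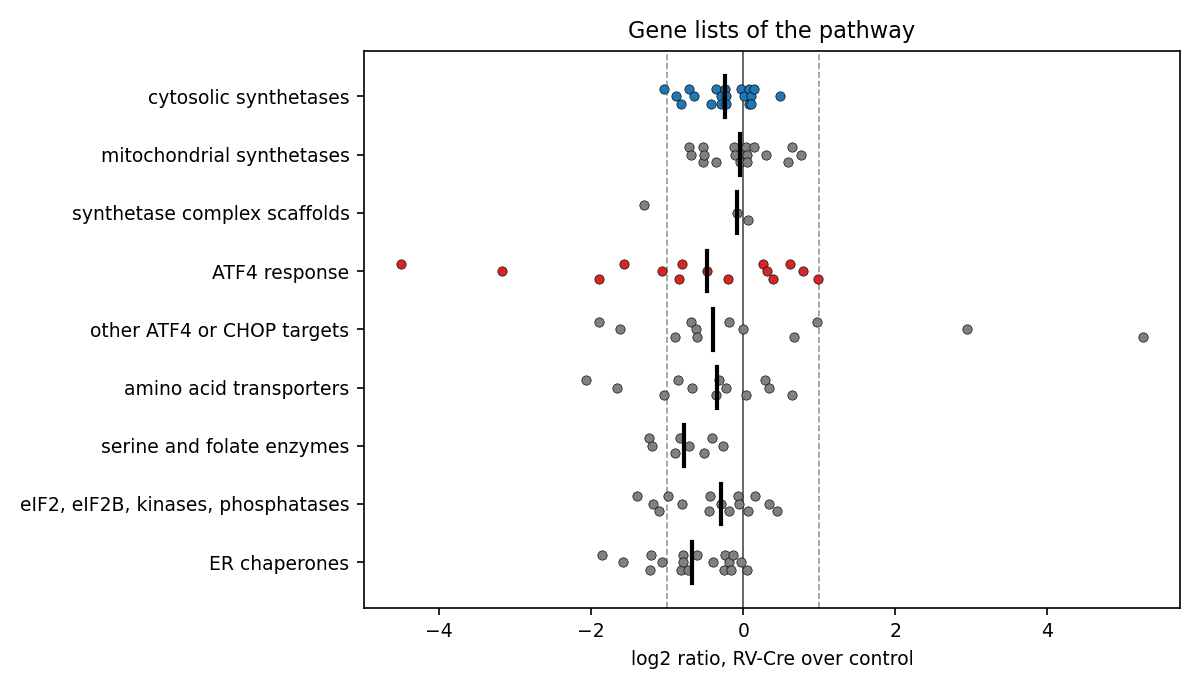
Log2 ratio (RV-Cre over control) of each gene past the minimum in the member lists (blue and red) and the other lists of the pathway (grey), with bars at the medians and dashed lines at 2-fold. With TMM scaling the serine and folate enzymes lie below 0, and the cytosolic synthetases lie about a median of -0.23.

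The ends of some members lie on other genes. The 3′ end of *Mars* (chr10:127296221-127311786) overlaps that of *Ddit3* (chr10:127290774-127296288) on the opposite strand, and whether the counting used strand is not given in the sources used here, so reads of the 2 genes may be mixed. The last bases of *Farsb* and *Yars* also overlap genes on the opposite strand (*Sgpp2* and *C77080*). Those of *Aars* overlap *Exosc6* on the same strand, where counting by strand would not separate the reads.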

How the data were processed

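The authors deposited raw read counts per gene symbol for each library, from 500 ng of total RNA. The submitters' processing notes name bcl2fastq 2.20.0.422, Bowtie2, bedtools and the build mm10. The 2 libraries, 1 per group, were joined by gene, and the members and lists were chosen with earlier results of these data known. Counts were scaled by TMM in edgeR 4.0.16 (R 4.3.3), with 1 added before log2. A gene was called at a 2-fold difference if either library reached a log2 value of 4. No test across genes was made. Exact 95% intervals (scipy 1.17.1) and the floor of 3 reads cover counting error only, since reads without molecular identifiers are not independent molecules. Members were named with their reads in both libraries. In the other lists of the pathway, the 2 most extreme genes in each direction and every gene past 2-fold were named. The genes named from the endoplasmic reticulum list and the cell type markers are a selection. Alternatives were other scalings (including DESeq2 1.42.0 size factors), pseudocounts, minimums and folds. Gene positions are from GENCODE M21 and promoters from RefSeq GRCm38.p6. The sequence of 1 match and 1 marker gene are not reported here.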

Additional observations from a re-analysis of the deposited data

How the results depend on the processing

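With 1 library per group, no alternative measures the spread between cultures. No paired analysis was possible because each group has 1 library. The scalings by library totals and DESeq2 size factors kept the counts of members called 2-fold lower at 1 synthetase and 5 ATF4 response genes. Over all 12112 genes they called 1512 and 1527 lower. With library totals without *Rn45s* the synthetases called lower were 0, their median log2 ratio was -0.14, and 1 ATF4 response gene was called higher. Over all genes this scaling called 1938 higher and 1281 lower of 12147, with a median of 0.09. With scaling to *Gapdh*, which moved the median of all genes to 0.43, the synthetases called lower were 0 with a median of 0.18, and the ATF4 response had 3 genes called higher and a median of -0.066. Both of these scalings left 4 ATF4 response genes called lower. Quantile normalization gave 0 synthetases called lower and a median of -0.13, beside 1608 of 12064 genes called lower. A pseudocount of 0.1 gave 1 ATF4 response gene called higher, *Nupr1*, beside 1744 of 12082 genes. No expression minimum gave 1 as well, *Pycr1*, beside 3265 of 15777 genes. A log2 minimum of 6 gave 3 of 12 ATF4 response genes called lower, beside 1067 of 9688 genes. A log2 minimum of 4 in both libraries gave 3 of 13, with a median of -0.21, beside 1097 of 10537 genes. A 1.5-fold threshold called 5 synthetases lower, and 3 ATF4 response genes higher and 7 lower, beside 2847 higher and 2777 lower of 12112 genes. A 3-fold threshold called 0 synthetases and 3 ATF4 response genes lower, beside 1008 higher and 669 lower of all 12112 genes. Over all genes, 1720 were called higher and 1491 lower, compared with 2960 and 780 after scaling to *Gapdh*. Of the single log2 ratios of members under the other scalings and pseudocounts, 204 moved by less than counting error and 55 by more. Under the scalings 8 synthetases and 1 ATF4 response gene, *Cebpb*, changed sign, and 6 synthetases (*Aars*, *Iars*, *Kars*, *Lars*, *Rars* and *Tars*) stayed below 0 in all. The causes were not tested. Depth limits *Chac1*, *Pycr1*, *Sesn2*, *Gpt2* and *Nupr1*, each with under 40 reads in either library.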

Other observations

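Chaperones of the endoplasmic reticulum fold secreted proteins and are induced when unfolded proteins build up there. They were listed together with *Xbp1*, *Atf6*, *Ern1*, *Edem1* and *Sel1l*, which are not chaperones. This list had a median log2 ratio of -0.67 over the 18 of 19 genes past the minimum. The 5 that fell by 2-fold or more were *Manf* (3865 reads in control and 946 in RV-Cre cells, -1.86), *Hsp90b1* (8324 and 2457, -1.59), *Dnajb9* (89 and 33, -1.23), *Pdia6* (6433 and 2467, -1.21) and *Sdf2l1* (1745 and 737, -1.07), and none rose that far, beside 12.3% of all genes called lower and 14.2% called higher. The call of *Sdf2l1* ends with library totals that leave out *Rn45s*. *Hspa5* (BiP), the main chaperone of this compartment, had 19304 and 15037 reads (-0.19), and *Xbp1*, a transcription factor of the same response, had 950 and 869 (0.05). *Ddit3*, which this response also induces, had 1085 and 1656 reads (0.78).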
